A study of Mus musculus
Mus spretus with 18 samples.

Results

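The genes described here encode parts of the motors that carry cargo along microtubules: Dctn1, Dync1i1, Dync1i2, Dync1h1, Klc1, Kif1b, Kif21a and Kif13a. They were chosen by symbol, as 8 of the 38924 genes with an expression value, and their skipped exon (SE) events were taken as 139 of 121350 autosomal events. Events that shared one alternative exon were grouped, which left 102 of 83339 exons. The samples came from F1 hybrids, with a mother of the inbred strain C57BL/6J (Mus musculus) and a father of SPRET/EiJ (the inbred line of Mus spretus), so that every cell held one allele of each species. Cerebral cortex, heart, kidney, lung, spleen and liver came from female mice aged 8 weeks, embryonic stem cells (ESC) from separate clones, and fibroblasts from 1 line that was treated for 4 h with 0.1 µM pladienolide B or with DMSO alone. The organs came from 2 animals, so libraries of different organs share animals. The liver data were taken from an earlier study of the same animals. Each of these 9 groups had 2 libraries, and no group was free of the hybrid background. The labels of the liver libraries give other C57BL strain names, C57BL/7J and C57BL/8J.

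Cytoplasmic dynein walks towards the minus end of microtubules and most kinesins walk towards the plus end. The dynein heavy chain (Dync1h1) holds the motor domain, the intermediate chains (Dync1i1 and Dync1i2) hold the complex together and bind dynactin, and the large dynactin subunit (Dctn1) binds microtubules and the intermediate chains. Klc1 is a light chain that ties conventional kinesin to cargo, Kif1b moves mitochondria and precursors of synaptic vesicles, Kif21a slows the growth of microtubules, and Kif13a carries vesicles of the endosomal system. Neurons depend on these motors because their axons are long, and several motor genes are known to have exons that neurons include.

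The measure was percent spliced in (PSI), the share of transcripts that include an exon, here written between 0 and 1 and computed from junction reads corrected for the effective length of each form. An exon was expressed in a tissue when at least 20 junction reads covered its event in both libraries, and its switch score was the highest minus the lowest mean PSI over the tissues that expressed it. Junction reads over all events ranged from 45055286 to 128494506 per tissue library and from 121091735 to 144154268 per fibroblast library, and reads over events of the 8 genes from 5895 to 202495 and from 29858 to 82022. Of 33 marker genes, 31 were higher in each library of their own tissue than in any other group, and the exceptions were Dcn and Pdgfra in the fibroblasts. Exons outside the naming rule (the largest switch score of a gene, a switch score of at least 0.3, or a call in an allelic or pladienolide B comparison) were named after their values were seen. The libraries are named library 1 and 2 by their place in the deposited lists. Each tissue's list held only events with reads of both forms in that tissue (251107 of 251107 listed), so a missing value says only that the event was not listed or had too few reads.

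Most exons of the 8 genes did not switch, and a minority switched strongly. Of the 88 exons expressed in a tissue, 68 had a mean PSI of at least 0.9 in every tissue that expressed them and 3 a mean PSI of at most 0.1. Counted over all these levels, 39 of the 88 were expressed in 1 tissue alone, which left 49 to compare. Inclusion differed across tissues in 15 of these 49 (F test in a quasi-binomial model, adjusted p under 0.05 and a switch score of at least 0.1), against 9.57% of all 39909 exons tested. The median switch score was 0.0115 over the 49 exons and 0.0140 over all exons tested.

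Micro-exons and exons with a length that is a multiple of 3 made up much of what differed. Of 8 tested micro-exons (30 bp or less), 6 were called, against 42.9% of all 773 micro-exons tested. Of the 41 longer exons 9 were called (22%), against 9.57% of all 39909 exons tested, micro-exons included. Length was a multiple of 3 in 14 of the 15 called exons, against 56.7% of all called exons. Cortex had the highest mean PSI in 10 of the 15, against 34.3% of all called exons that cortex expressed. Among the exons that cortex and another tissue expressed, 10 of 39 were called with cortex highest, against 4.99% of all. A switch score of at least 0.5 was reached by 9 of the 49 exons, against 2.81% of all tested, and one of at least 0.3 by 13, against 5.13%.

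**Figure D1:**
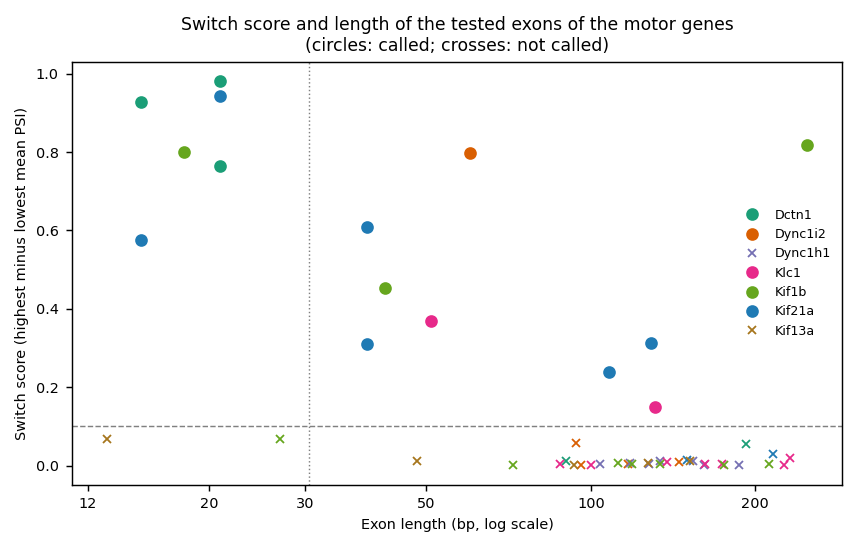
Switch score (vertical axis) against exon length in bp (horizontal axis, log scale) for the 49 tested exons, coloured by gene, with circles for called exons and crosses for the others. The dotted line marks the limit of 30 bp and the dashed line a switch score of 0.1. The 6 called micro-exons lie between 0.575 and 0.981, and most exons over 60 bp lie near 0.

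The large dynactin subunit Dctn1 held 3 of the called exons, all micro-exons. The upstream 21 bp exon (chr6:83183936-83183956, mm10, plus strand) had a PSI of 0.998 and 0.996 in cortex and of 0 and 0.0315 in heart, the other tissue that expressed it. It was almost always included in cortex and almost always skipped in heart, with a difference of 0.981 (adjusted p = 1.4e-11) that had the highest switch score of the 49.

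The downstream 21 bp exon of Dctn1 (chr6:83187764-83187784) had a PSI of 0.804 and 0.746 in cortex, 0.757 and 0.698 in heart, 0.0431 and 0.0408 in lung, and 0 and 0.0233 in ESC. Cortex and heart overlapped for this exon (difference 0.047, adjusted p = 0.42), while both lay far above lung and ESC. Cortex exceeded lung by 0.733 (adjusted p = 1.9e-13) and ESC by 0.763 (adjusted p = 3.6e-12). Both fibroblast conditions were low as well, with mean PSI of 0.0079 after DMSO and 0.00265 after pladienolide B.

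Between the 21 bp exons lies a micro-exon of 18 bp (chr6:83186428-83186445). In its event with the most reads it had a value in fibroblasts alone, where the mean PSI was 0.000536. Measured between the constant exon upstream and the downstream 21 bp exon, its mean PSI was 0.917 in cortex and 0.0853 in heart. Inclusion was thus high in cortex in the events of all these exons, and in heart in that of the downstream 21 bp exon alone.

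The 15 bp exon of Dctn1 (chr6:83197319-83197333) had a PSI of 0.926 and 0.943 in cortex and of 0.00692 and 0.00598 in kidney. In lung it was 0.0145 and 0.0089, in ESC 0.00637 and 0.00914, and in DMSO fibroblasts 0.00178 and 0.0018. Cortex stood alone, above kidney by 0.928 (adjusted p = 1.5e-16), lung by 0.923 (adjusted p = 2.7e-18) and ESC by 0.927 (adjusted p = 1.5e-14). Where the 12 exons of Dctn1 over 30 bp had a value, the mean PSI from all reads was at least 0.983, other than for the 192 bp exon at 83189077 in ESC (0.985 and 0.904). Neither of the 2 that could be tested was called. The 90 bp exon at 83199188 had a mean PSI of 0.983 to 0.994 in 6 tissues.

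Both dynein intermediate chain genes had a 60 bp exon with nearly the same inclusion in cortex. The 60 bp exon of Dync1i2 (chr2:71233649-71233708, plus strand) was expressed in all 7 tissues, with a PSI of 0.783 and 0.817 in cortex. In the other tissues the libraries lay between 0 and 0.0181, the highest of them in kidney, and no library of these tissues came near those of cortex. Cortex exceeded the others by 0.783 (kidney, adjusted p = 9.4e-20) to 0.798 (liver, adjusted p = 3.0e-17). These values rest on 576 or more reads per library.

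Dync1i1 was expressed almost only in cortex, and all 7 of its exons with enough reads had values in that tissue alone, so none could be compared across tissues. Its 60 bp exon (chr6:5784439-5784498, plus strand) had a PSI of 0.801 and 0.786. In the other tissues it had at most 11 reads in a library. The exons of 142, 91 and 58 bp at 5769650, 5769701 and 5769734 overlap and share reads, with at most 1 skipping read each in a library.

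An 18 bp micro-exon of Dync1i2 (chr2:71227827-71227844) had a value in cortex as the only tissue, with a PSI of 0.358 and 0.384, and its mean was 0.000256 in DMSO fibroblasts. A 94 bp exon that overlaps it (chr2:71227751-71227844) had a PSI of 0.0481 and 0.0682 in cortex and mean values of 0.000971 or less in lung, spleen, liver and ESC. Its switch score of 0.058 was under the limit (adjusted p = 3.9e-08), so it was not called. Both exons had the same skipping reads in cortex (653 and 574). Skipping reads of the 94 bp exon numbered 1959 and 1809 in lung, 878 and 1072 in spleen, and 965 and 938 in ESC. The event of the 18 bp exon was not listed in those tissues, so the missing values do not reflect a lack of skipping reads.

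The 5 exons of other genes whose mean PSI over the 7 tissues lay closest to the 60 bp exon of Dync1i2, among 7362 exons expressed in all of them, were a 54 bp exon of Cltb (mean absolute difference 0.00537), a 21 bp exon of Eif4g1 (0.00764), a 177 bp exon of Arhgef7 (0.00813), a 15 bp exon of Ergic3 (0.0113) and a 15 bp exon of Vav2 (0.0134). All have a length that is a multiple of 3. Their mean PSI in cortex ran from 0.739 to 0.815.

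The dynein heavy chain Dync1h1 had no switching exon. Of its 15 exons, 7 could be tested and none was called or had an unadjusted p under 0.05 in the quasi-binomial model. The highest switch score was 0.0127, for a 134 bp exon (chr12:110648261-110648394, plus strand; adjusted p = 0.92), with a PSI of 1 and 0.993 in lung, 0.968 and 1 in spleen, 0.992 and 1 in liver, and 1 and 0.989 in ESC. The libraries of these tissues overlapped near full inclusion.

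**Figure D2:**
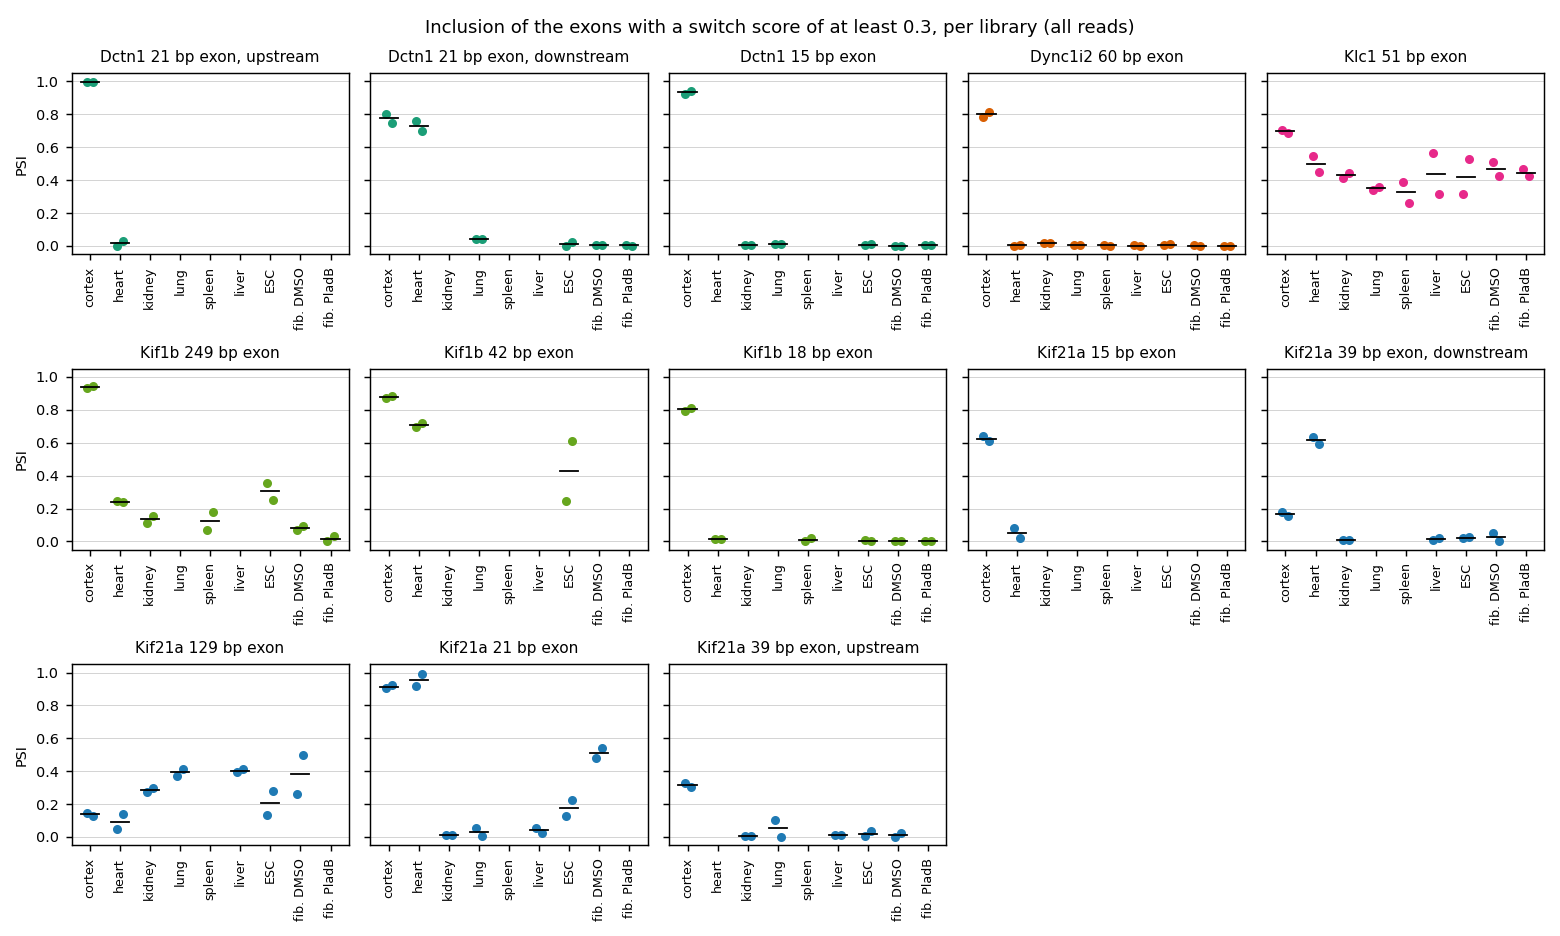
PSI (vertical axis, 0 to 1) of the 13 exons with a switch score of at least 0.3 in each library of the 7 tissues and of DMSO and pladienolide B (PladB) fibroblasts (horizontal axis). Points are the 2 libraries of a group and black bars their mean, and a group without points had too few reads. Cortex stands far above most tissues in most panels, heart is high with it for the downstream 21 bp exon of Dctn1 and the 21 bp exon of Kif21a, and the Klc1 panel shows intermediate levels in all groups, with cortex highest.

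Klc1 differed by degree. Its 51 bp exon (chr12:111793649-111793699, plus strand) had a PSI of 0.705 and 0.688 in cortex, and every other tissue fell below both libraries, with means from 0.327 in spleen to 0.498 in heart. Both heart libraries (0.548 and 0.448) lay above those of kidney (0.416 and 0.443), which lay above those of lung (0.340 and 0.361) and spleen (0.391 and 0.262), while the libraries of liver (0.565 and 0.315) and ESC (0.313 and 0.529) lay far apart. Cortex exceeded heart by 0.199 (adjusted p = 0.00039), kidney by 0.268 (0.0024), lung by 0.346 (3.2e-07), spleen by 0.370 (3.8e-05) and ESC by 0.276 (0.0012), but liver by 0.257 with adjusted p = 0.21, on 30 reads in the shallower liver library. Without library 2 of heart the difference from heart was 0.148 (adjusted p = 0.075), and without library 1 of ESC that from ESC was 0.168 (adjusted p = 0.093).

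A 131 bp exon of Klc1 (chr12:111795548-111795678) was the only called exon whose length is not a multiple of 3. Its mean PSI ran from 0.773 in lung to 0.922 in liver, with 0.917 in cortex, and its libraries were 0.776 and 0.771 in lung and 0.927 and 0.918 in liver. Across tissues it had a switch score of 0.149 (adjusted p = 7.8e-05). Cortex exceeded lung by 0.143 (adjusted p = 0.00064) and spleen by 0.127 (adjusted p = 0.0038).

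Kif1b held 3 called exons, each most included in cortex. The 249 bp exon (chr4:149220542-149220790, minus strand) had a PSI of 0.936 and 0.945 in cortex, 0.245 and 0.24 in heart, 0.114 and 0.153 in kidney, 0.069 and 0.179 in spleen, and 0.358 and 0.253 in ESC. Cortex lay above every other library, by 0.635 over ESC (adjusted p = 4.8e-12) to 0.817 over spleen (adjusted p = 4.4e-07), and the other tissues lay in the lower part of the scale. Reads fell from 4695 or more in cortex to 31 in the shallower spleen library.

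The 18 bp micro-exon of Kif1b (chr4:149265345-149265362) was closer to a switch, with a PSI of 0.795 and 0.813 in cortex against 0.0137 and 0.0172 in heart, 0 and 0.0182 in spleen, and 0.00677 and 0.00248 in ESC. Cortex exceeded heart by 0.788 (adjusted p = 5.9e-14). The 42 bp exon (chr4:149261160-149261201) had a PSI of 0.874 and 0.886 in cortex and 0.695 and 0.722 in heart, a difference of 0.171 (adjusted p = 0.00019). In ESC the libraries of this exon were 0.244 and 0.61, and the difference from cortex of 0.453 (adjusted p = 0.00076) fell to 0.270 (adjusted p = 0.18) without library 1 of ESC. A further micro-exon of 27 bp (chr4:149195473-149195499) was skipped almost everywhere, with mean PSI of 0.0054 to 0.072 in 6 tissues.

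Kif21a had the most called exons, 6 of 8 tested. Its 21 bp micro-exon (chr15:90964975-90964995, minus strand) had a PSI of 0.904 and 0.925 in cortex and 0.916 and 0.99 in heart. In kidney it was 0.0131 and 0.00971, in lung 0.0573 and 0.00746, in liver 0.0568 and 0.0265, and in ESC 0.13 and 0.223. Cortex and heart overlapped (difference -0.038, adjusted p = 0.49) and stood far above the rest, with cortex above kidney by 0.903 (adjusted p = 9.1e-17) and above ESC by 0.739 (adjusted p = 1.5e-09). DMSO fibroblasts lay between, at 0.479 and 0.543 on 47 or more reads.

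The upstream 39 bp exon of Kif21a (chr15:90976471-90976509) was included in part in cortex and hardly elsewhere. Its PSI was 0.33 and 0.302 in cortex, 0.00524 and 0.00731 in kidney, and 0.00944 and 0.0118 in liver. In lung it was 0.105 and 0, and without library 2 of lung the difference from cortex of 0.264 (adjusted p = 0.019) was 0.211 with adjusted p = 0.30. The shallower lung library had 34 reads.

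Toward the 3′ end of Kif21a, 5 neighbouring exons of 215, 108, 129, 39 and 15 bp were combined in several ways, and their events share junction reads. The downstream 39 bp exon (chr15:90949006-90949044) was highest in heart. Its PSI was 0.634 and 0.595 in heart, 0.179 and 0.156 in cortex, and 0.00584 and 0.00825 in kidney. Cortex lay below heart with no overlap (cortex minus heart -0.447, adjusted p = 6.4e-08). These values are from the event with the most reads, which joins it to the 108 bp exon, and the level depended on the neighbour: joined to the 129 bp exon the mean PSI was 0.699 in cortex and 0.939 in heart, and joined to the 215 bp exon 0.519 and 0.939. Heart was above cortex and both above kidney and liver in each of these events.

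The 15 bp micro-exon beside it (chr15:90948324-90948338) had a PSI of 0.64 and 0.611 in cortex and 0.0806 and 0.0203 in heart, the reverse order, with a difference of 0.575 (adjusted p = 1.5e-07). The 39 bp exon was thus higher in heart and the 15 bp exon in cortex, although the test on log odds of each library called neither (adjusted p = 0.055 and 0.062). The 129 bp exon (chr15:90951246-90951374) was lower in cortex (0.147 and 0.13) than in kidney (0.275 and 0.296), lung (0.373 and 0.413) and liver (0.396 and 0.411). Cortex minus these tissues gave -0.147, -0.255 and -0.265 (adjusted p = 0.00012, 2.1e-06 and 9.1e-07). The 108 bp exon (chr15:90952711-90952818) was lowest in cortex (0.675 and 0.712) and highest in heart (0.97 and 0.892), and the 215 bp exon was not called, at 0.968 to 0.997.

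Kif13a had no called exon among 5 tested, and 1 with an unadjusted p under 0.05 in the quasi-binomial model. Its 13 bp micro-exon (chr13:46864819-46864831, minus strand) had the highest switch score of the gene, 0.068 (adjusted p = 0.21). Its PSI was 0.975 and 0.934 in cortex, 0.991 and 0.992 in heart, 0.971 and 0.991 in kidney, 1 and 0.91 in spleen, and 0.878 and 0.97 in ESC. All tissues included it in most transcripts. Cortex overlapped kidney, spleen and ESC, while both heart libraries lay above those of cortex and ESC. Without library 2 of ESC the switch score was 0.114 and was called (adjusted p = 0.032).

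Set against each other tissue in turn, cortex differed in 9 of 23 exons from heart (background 11.1%), 8 of 21 from kidney (10.8%), 9 of 20 from lung (10.8%), 5 of 14 from spleen (11.8%), 5 of 14 from liver (12.5%) and 10 of 31 from ESC (10.2%). These comparisons share the cortex libraries. Inclusion was higher in cortex in 7, 7, 7, 5, 4 and 10 of them, against 6.19%, 5.84%, 5.85%, 6.70%, 6.24% and 5.80% of all exons tested. In ESC no called exon exceeded cortex. Spread between libraries limits several of these calls: a moderated F test on the log odds of each library called 8 exons across tissues in place of 15, and 26 in place of 46 in the cortex comparisons. Across tissues it did not call the 51 bp (adjusted p = 0.56) and 131 bp (0.47) exons of Klc1, the 42 bp exon of Kif1b (0.33), and the 15 bp (0.090), 129 bp (0.25), 108 bp (0.39) and upstream 39 bp (0.19) exons of Kif21a. In the cortex comparisons all calls of these exons were lost with it, other than those of the upstream 39 bp exon of Kif21a against kidney and liver. It also did not call the downstream 39 bp exon of Kif21a against heart (adjusted p = 0.055) and ESC (0.067), and the downstream 21 bp exon of Dctn1 against lung (0.064).

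Lists of other motor genes were drawn up with earlier results of these data known. Exons differed across tissues for 3 of 34 tested in 15 dynein subunits, 4 of 49 in 12 dynactin subunits, 24 of 131 in 40 kinesin heavy chains, 3 of 19 in 5 light chains and partners, and 24 of 94 in 23 adaptors and regulators, against the 9.57% of all exons. These lists include the genes above. Among the kinesins, a 114 bp exon of Kif2a (chr13:106969704-106969817), which depolymerizes microtubules, had a mean PSI of 0.902 in cortex, 0.187 in heart and 0.0333 or less in kidney, lung, spleen, liver and ESC. A 66 bp exon of Kifap3 (chr1:163912072-163912137), which links heterotrimeric kinesin to cargo, had 0.890 in cortex and 0.325 in heart.

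Not every such exon was high in cortex. The 42 bp exon of Dync1li2 (chr8:104423586-104423627), a dynein light intermediate chain, was included less in cortex (mean PSI 0.568) than in the other tissues (0.913 to 0.974). A 113 bp exon of Capzb (chr4:139288861-139288973), which caps actin filaments and is a dynactin subunit, had 0.770 in heart and 0.101 or less in the others. A 9 bp exon of Kif3a (chr11:53590717-53590725), a motor of cilia, was highest in ESC at 0.748, with 0.271 in cortex.

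Expression of the genes was taken from TPM values, which are corrected for gene length. Klc1 was the highest in cortex with 418 and 463 TPM, and the others there were Kif1b (200 and 206), Dctn1 (183 and 200), Dync1h1 (175 and 185), Dync1i1 (136 and 151), Kif21a (130 and 137), Dync1i2 (63.3 and 61.5) and Kif13a (24.8 and 22.8). In this order the libraries of neighbouring genes overlapped for Dctn1 and Dync1h1 and for Dync1i1 and Kif21a, and those of Kif1b and Dctn1 were next to each other. Cortex was the highest of the 7 tissues for 6 of the 8 genes. The exceptions were Dync1h1, with 262 and 167 TPM in the ESC clones, and Kif13a, with 76.02 and 77.97 in heart.

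Liver was lowest for Dctn1 (10.4 and 10.8 TPM), Dync1i2 (12.3 and 11.8), Dync1h1 (11.9 and 13.2), Klc1 (9.75 and 9.52) and Kif13a (4.21 and 4.48). Dync1i1 was listed at 0 TPM in both liver libraries, and Kif21a was lowest in spleen (0.859 and 0.766). Dync1i1 stayed at or below 1.44 TPM in every library outside cortex. The levels of Kif1b outside cortex ran from 9.49 in spleen to 34.4 in heart.

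On the log2(TPM + 0.1) scale, cortex differed from the other tissues in 43 of 48 tests of the 8 genes (limma with Benjamini-Hochberg adjustment, adjusted p under 0.05 and a log2 difference of at least 1). By tissue this was 8 of 8 for heart (58.8% of all genes), 7 for kidney (52.8%), 6 for lung (54.7%), 8 for spleen (58.7%), 8 for liver (71.2%) and 6 for ESC (61.1%). Of these, 7 were higher in cortex than in heart (44.6% of all genes), 7 than in kidney (33.7%), 6 than in lung (30.3%), 8 than in spleen (33.7%), 8 than in liver (60.6%) and 6 than in ESC (33.4%). Klc1 exceeded heart by 2.42 (SE 0.111, adjusted p = 9.9e-10), and Kif1b exceeded spleen by 4.32 (SE 0.103, adjusted p = 3.8e-12). Kif13a was lower in cortex than in heart (log2 difference -1.69, SE 0.076, adjusted p = 9.0e-10). In bulk tissue, fewer cells of a type and less RNA per cell cannot be told apart.

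The median log2 difference over all genes was 0.808 against heart and 1.56 against liver, so part of each difference is shared by most genes. After the libraries were centred on the median of genes expressed in all of them, 37 of the 48 tests were called. Among those no longer called were Dync1h1 (0.934), Dync1i2 (0.932) and Dctn1 (0.669) against heart.

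**Figure D3:**
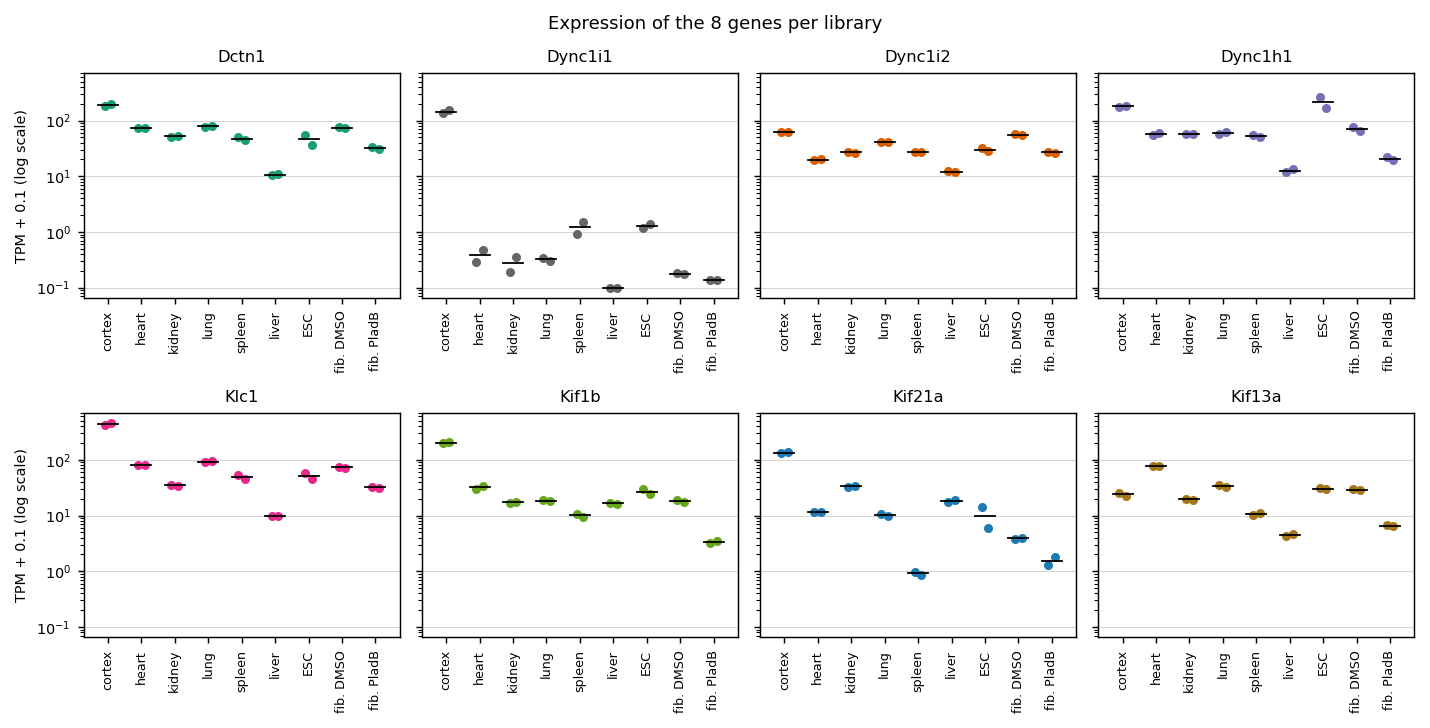
TPM plus 0.1 (vertical axis, log scale) of the 8 genes in each library of the 7 tissues and of DMSO and pladienolide B (PladB) fibroblasts (horizontal axis). Points are the 2 libraries of a group and black bars their mean. Dync1i1 reaches 136 TPM or more in cortex and at most 1.44 in any other library, Kif13a is highest in heart, and the ESC clones lie apart for Dync1h1 and Kif21a.

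Marker genes of other tissues give the context of these levels. The summed TPM of the 5 cortex markers was 3372 to 3542 in cortex, 40.5 to 52.6 in heart and 2.71 to 29.8 in kidney, lung, spleen, liver and ESC. Their part in the low inclusion of cortex exons in heart was not tested.

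Both alleles of a hybrid share one nucleus, so their PSI values are compared within the same cells and the same library. Allelic PSI was computed from reads assigned to the C57BL/6J or SPRET/EiJ allele, with at least 20 on each allele in each library and a pooled PSI of both alleles' reads within 0.1 of the PSI from all reads. Differences are given as C57BL/6J minus SPRET/EiJ. Exons of the 8 genes gave 157 tests over the 7 tissues, and 148 of them differed by under 0.1, with a median absolute difference of 0.00707. A single one was called, 1 of 19 in lung (background 2.91%), and none of 45 in cortex (2.37%), 20 in heart (2.70%), 16 in kidney (2.16%), 8 in spleen (2.54%), 11 in liver (1.69%) or 38 in ESC (0.87%). An unadjusted p under 0.05 in the quasi-binomial model was found for 5 of these exons in cortex, 3 in kidney, 2 in lung, 1 in ESC and 0 in heart, spleen and liver, and the test on log odds, described with the cortex comparisons, called 0.

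Of the 13 exons with a switch score of at least 0.3, the upstream 21 bp and the 15 bp exons of Dctn1 could not be compared between alleles. The downstream 21 bp exon of Dctn1 could not be compared in tissues either, with 8 and 9 reads of the C57BL/6J allele in cortex and 5 and 27 in heart. It had enough reads in DMSO fibroblasts, at mean values of 0.0272 and 0.0140. In cortex the 60 bp exon of Dync1i2 had a PSI of 0.805 and 0.832 on the C57BL/6J allele and 0.748 and 0.799 on the SPRET/EiJ allele, a difference of 0.045 (adjusted p = 0.63). The 60 bp exon of Dync1i1 had 0.793 and 0.818 against 0.740 and 0.678, a difference of 0.0965 with no overlap of the libraries (adjusted p = 0.12). For the 21 bp exon of Kif21a the difference was 0.021 in cortex (adjusted p = 0.65), 0.00045 in kidney (adjusted p = 0.98) and -0.024 in heart (adjusted p = 0.76), and in ESC -0.094, on mean values of 0.120 and 0.214 (adjusted p = 0.89). The 18 bp exon of Kif1b had mean values of 0.776 and 0.790 in cortex (adjusted p = 0.81).

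The upstream 39 bp exon of Kif21a passed the threshold for p in cortex (adjusted p = 0.024) with a difference just under the limit for a call. Its PSI was 0.241 and 0.209 on the C57BL/6J allele and 0.340 and 0.305 on the SPRET/EiJ allele, a difference of -0.0981 with no overlap. It rests on 784 or more reads per allele and library.

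The called exon was the 129 bp exon of Kif21a in lung, with a PSI of 0.190 and 0.236 on the C57BL/6J allele and 0.417 and 0.488 on the SPRET/EiJ allele. The difference was -0.239 (adjusted p = 0.0096), with the same sign in both libraries. It lost its call without either lung library, where the other was assumed to vary like the other tissues (adjusted p = 0.50 without library 1 and 0.27 without library 2), and under the test on log odds (adjusted p = 0.27). In kidney the same exon differed by -0.107 with adjusted p = 0.098. Both alleles of a library come from one animal or clone, and with the library as a block 3 differences were called in tissues in place of 1: this exon in lung (adjusted p = 0.0050) and in kidney (adjusted p = 0.0104), and the 108 bp exon of Kif21a in kidney. In kidney the mean PSI from all reads lay above that of both alleles for these exons. It was 0.285 against 0.163 and 0.270 for the 129 bp exon, and 0.778 against 0.747 and 0.601 for the 108 bp exon.

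In liver the 129 bp exon had differences of -0.130 and 0.0565 in its libraries, and in cortex of -0.0312 and 0.0412, so the sign was not shared by all tissues. Its neighbour of 108 bp was higher on the C57BL/6J allele in 11 of 12 libraries of 6 tissues, by 0.146 in kidney (adjusted p = 0.13, or 0.0171 with the block), 0.166 in lung (adjusted p = 0.25) and 0.170 in heart (adjusted p = 0.47). These exons are not independent, because the junction that skips the 129 bp exon is counted as inclusion of the 108 bp exon.

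In fibroblasts the 51 bp exon of Klc1 differed between alleles after DMSO, 1 of 25 tests (background 2.65%). Its PSI was 0.568 and 0.600 on the C57BL/6J allele and 0.390 and 0.275 on the SPRET/EiJ allele, a difference of 0.251 (adjusted p = 0.024). After pladienolide B it was 0.544 and 0.486 against 0.331 and 0.343, a difference of 0.178 that was not called (adjusted p = 0.45), and none of the 24 tests there was called or had an unadjusted p under 0.05 in the quasi-binomial model (background 2.24%). The change of -0.073 between the conditions had adjusted p = 0.998. The call after DMSO was lost without library 1 (difference 0.324) or library 2 (0.178), where the other was assumed to vary like the pladienolide B libraries. It was also lost under the test on log odds (adjusted p = 0.24).

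**Figure D4:**
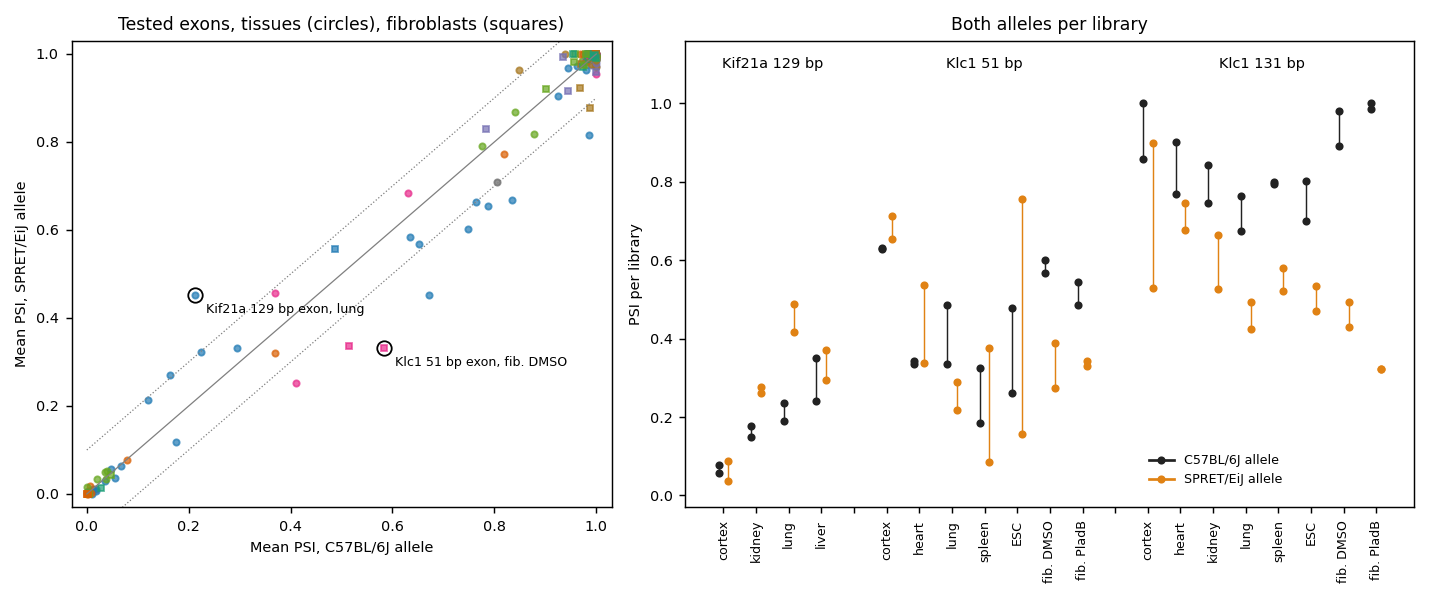
Left, mean PSI of the SPRET/EiJ allele (vertical axis) against that of the C57BL/6J allele (horizontal axis) for each tested exon and group, coloured by gene, with the line of equality, dotted lines at a difference of 0.1 and rings around the 2 called differences. Right, PSI per library (vertical axis) of both alleles for 3 exons in the groups with enough reads (horizontal axis), with a line between the 2 libraries. Most points lie within 0.1 of equality, and the C57BL/6J allele is higher for the 131 bp exon of Klc1 in most groups.

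The 131 bp exon of Klc1 did not enter the allelic comparisons, because the pooled reads of both alleles gave a PSI lower than all reads by more than 0.1 in each of 8 groups. It was singled out after its values were seen. In DMSO fibroblasts the alleles had a mean PSI of 0.936 (C57BL/6J) and 0.462 (SPRET/EiJ), and their reads together 0.667 against 0.835 from all reads. After pladienolide B they had 0.993 and 0.322, together 0.611 against 0.807. The C57BL/6J allele was higher in 15 of 16 libraries of 8 groups. With no filter on the agreement of allelic and all reads, the differences of 0.474 and 0.671 in fibroblasts (adjusted p = 1.7e-09 and 1.9e-17) and 0.261 in lung (adjusted p = 0.0016) were called, and those in heart (0.124), kidney (0.20), cortex (0.215), spleen (0.245) and ESC (0.25) were not. In heart, kidney, lung and ESC the mean PSI from all reads lay above that of both alleles, in lung at 0.773 against 0.720 and 0.459. In cortex, spleen and fibroblasts it lay between the alleles. The reason for the gap between allelic and all reads was not tested, so the size of these allelic differences is uncertain.

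Pladienolide B binds the SF3B complex, which recognizes the branch site of introns, and blocks an early step of splicing. Inclusion of 50 exons of the 8 genes could be compared between treated and DMSO fibroblasts. After treatment 36 of the 50 were lower, and so were 28639 of 39797 exons over all genes, a similar share. The median change was -0.00508, and -0.00402 over all exons. A single exon was called, 1 of 50 against 7.15% of all exons tested (6.97% called lower).

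That exon was the 128 bp exon of Dync1h1 (chr12:110656593-110656720), a constant exon in tissues, with a PSI of 0.995 and 1 in cortex. After DMSO it was included in every read (PSI of 1 and 1, on 3366 or more reads), and after pladienolide B its PSI was 0.894 and 0.863, a difference of -0.122 (adjusted p = 1.3e-25). The 118 bp exon of Dync1h1 (chr12:110654784-110654901) went from 1 and 1 to 0.929 and 0.929, a difference of -0.071 (adjusted p = 2.0e-11) under the limit of 0.1. The 215 bp exon (chr12:110649462-110649676) went from 1 and 1 to 0.988 and 0.951 (-0.030, adjusted p = 0.0020).

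Smaller differences with an adjusted p under 0.05 were found in 4 more exons. They were a 112 bp exon of Kif1b (-0.059, adjusted p = 0.013), a 93 bp exon of Kif13a (-0.046, adjusted p = 0.042), a 90 bp exon of Dctn1 (-0.011, adjusted p = 0.019) and a 174 bp exon of Klc1 (-0.008, adjusted p = 0.013). None of the exons with a switch score of at least 0.3 was called, but several could not be tested or could not fall by 0.1. The upstream 21 bp exon of Dctn1 had 1 and 4 reads after DMSO, and 2 exons of Kif21a could be tested. The 15 bp and downstream 21 bp exons of Dctn1 had mean values of 0.00179 and 0.0079 after DMSO. The 60 bp exon of Dync1i2 had mean values of 0.00218 after DMSO and 0.000552 after treatment, and the 51 bp exon of Klc1 0.468 and 0.444 (adjusted p = 0.75). Exons of Dync1i1 could not be tested. In the lists of motor genes, 1 of 41 exons was called in dynein subunits, 0 of 80 in dynactin subunits (14 with an unadjusted p under 0.05 in the quasi-binomial model), 13 of 135 in kinesin heavy chains (12 of them lower), 1 of 18 in light chains and partners, and 6 of 78 in adaptors and regulators, against 7.15% of all exons.

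**Figure D5:**
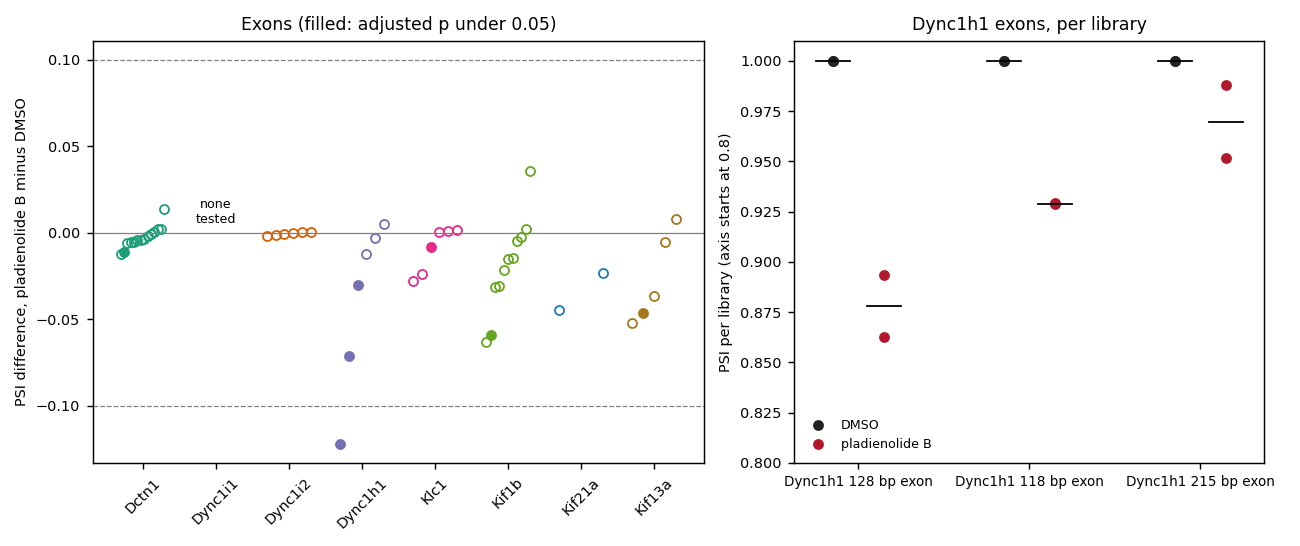
Left, change in PSI after pladienolide B against DMSO (vertical axis) for the tested exons by gene (horizontal axis), filled where the adjusted p was under 0.05, with dashed lines at a change of 0.1 either way. Right, PSI per library (vertical axis, which starts at 0.8) of 3 exons of Dync1h1 after DMSO (black) and pladienolide B (red), with bars at the mean. The 128 bp exon of Dync1h1 lies beyond the lower dashed line at -0.122, and the DMSO libraries of all 3 exons lie at 1.

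No interaction of allele and treatment was called among 10 exons of the 8 genes (0.0678% of all tested), and none had an unadjusted p under 0.05 in the quasi-binomial model. Their changes in allelic difference lay between -0.0732 and 0.111. No other tool was applied to the interaction. None of the 2158 autosomal introns listed as retained lay in the 8 genes, so intron retention is not described.

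Expression fell after pladienolide B for 7 of the 8 genes (39.7% of all genes called, 36.7% lower). Kif1b went from 18.8 and 17.7 TPM to 3.09 and 3.33, a log2 difference of -2.47 (SE 0.103, adjusted p = 7.7e-10), and Kif13a from 29.8 and 28.2 to 6.75 and 6.29 (-2.13, SE 0.076, adjusted p = 2.2e-10). The log2 differences of the others were -1.79 for Dync1h1, -1.36 for Kif21a, -1.20 for Klc1, -1.19 for Dctn1 and -1.04 for Dync1i2, with no overlap between treated and control libraries.

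These falls are relative to TPM, and most genes moved with them. The median over all genes was -0.447, and among genes expressed in every library the shift that centring removed was 1.33. After centring, Kif1b stayed lower (-1.15, adjusted p = 1.6e-07) and was the only gene called, while Kif13a had -0.81, Dync1h1 -0.46 and Kif21a -0.03. Klc1 (0.12), Dctn1 (0.13), Dync1i2 (0.29) and Dync1i1 (0.97, at under 0.1 TPM in every fibroblast library) took the opposite sign. In the lists of motor genes, with 36.7% of all genes called lower, 31 of 39 tested kinesin heavy chains were called lower before centring (median -2.13), 16 of 20 adaptors and regulators (-2.04), 4 of 5 light chains and partners (-1.57), 4 of 12 dynactin subunits (-0.61) and 5 of 15 dynein subunits (-0.56).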

How the data were processed

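RNA was sequenced from 18 samples of F1 hybrid mice, ESC and fibroblasts. Per the methods and the submitters' processing notes, the authors aligned reads, trimmed to 76 bases in tissues, with HISAT2 2.0.1 to mm10 and to a genome of the other strain, assigned reads to alleles by the smaller edit distance, and counted junction reads per event with rMATS. Per the methods, cortex, heart and kidney were sequenced with longer reads than spleen, lung and ESC, and the liver data came from an earlier study. Comparisons of cortex with lung, spleen, ESC and liver therefore also cross sequencing sets, and the part of these sets was not tested. The deposited count columns hold both libraries of a group in one list, with effective lengths of each form. The authors deposited TPM values made from featureCounts counts, in a strand-specific setting. Deposited columns of p-values, false discovery rates and inclusion differences were not used.

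PSI was computed per library from the lists, and each exon was represented by its event with the most junction reads. Inclusion was fitted with a quasi-binomial logistic model across all autosomal events with at least 20 reads in both libraries. Its dispersion was moderated with limma 3.58.1 (trend on depth, a spline with 4 degrees of freedom, never under 1), and p-values were adjusted with the Benjamini-Hochberg method over all events of a comparison. A call needed an adjusted p under 0.05 and a PSI difference of at least 0.1. TPM values were tested with limma on log2(TPM + 0.1) for genes with at least 1 TPM in at least 2 libraries, with a log2 difference of at least 1 for a call, and adjusted over all genes. Adjusted p of PSI values come from this quasi-binomial fit unless the text names another setting. The other settings are the test on log odds, the library as a block, no filter on allelic against all reads, and a library left out. Every adjusted p of a TPM value comes from limma.

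The allelic tables do not name their alleles. The order was taken from the authors' definition of the difference, and 7 of 7 imprinted genes placed the first as maternal. The members, lists and comparisons were chosen with earlier results of these data known. The fit was tested on simulated data: across tissues it called 79% of exons changed by a PSI of 0.2 and 98% of those changed by 0.4 among 47963 events, and between alleles in cortex 22% and 69% among 24378 events. Library numbers were not taken to pair the tissues. The deviations of equally numbered libraries correlated with r from -0.104 to 0.0796 for PSI and from -0.0377 to 0.17 for TPM over 21 pairs of tissues. For TPM, r was positive in every pair of organs (0.0333 to 0.17) and ran from -0.0377 to 0.0339 in pairs with ESC, which share no animal with the organs. In 5 pairs, all of organs, it was over 0.1 for TPM, and in none for PSI. An unpaired fit does not use such a shared part. Both alleles of a library do belong together, with r of 0.707 in ESC and of 0.0468 to 0.159 in the organs. In fibroblasts r was 0.0464 after DMSO and -0.0381 after pladienolide B. Per the methods, the organs came from 2 animals, so that the libraries of different organs share animals; the sources used here do not say which animal a library number stands for. The ESC libraries came from different clones. The fibroblast libraries came from 1 line, so their p-values measure only the spread between these libraries. Intervals and tests cover the junction reads counted, which carry no molecular identifiers.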

Additional observations from a re-analysis of the deposited data

Results flagged for a closer look

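The 51 bp exon of Klc1 had allelic differences of opposite sign in DMSO fibroblasts, where it was called, and in cortex, where it was not. C57BL/6J minus SPRET/EiJ was 0.178 and 0.324 in the DMSO libraries, whereas in cortex it was -0.0817 and -0.0271, with a mean of -0.0544. All libraries of one group moved one way and all of the other the opposite way. In lung both libraries had the sign of DMSO fibroblasts (0.0456 and 0.268), as did both libraries after pladienolide B (0.213 and 0.143). In heart, spleen and ESC the libraries differed in sign. Heart and spleen had not passed the filter on allelic against all reads for this exon. The difference between the groups was not tested.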

How the results depend on the processing

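With 2 libraries per group, a call rests on a spread borrowed from other exons. Under a moderated test on the log odds of each library, added after the data were seen, 8 exons were called across tissues (15 in the report), 26 in the cortex comparisons (46), 0 between alleles in tissues (1) and 0 in fibroblasts (1). Without the filter on allelic against all reads, 2 allelic differences were called in tissues and 3 in fibroblasts. With the replicate block, which joins both alleles of a library, 3 were called in tissues, and the block moved no other count by over 1.5 times. Leaving out each library in turn gave 14 to 16 exons across tissues, 44 to 47 in the cortex comparisons, 0 to 1 between alleles in tissues and in fibroblasts (each lost without either library of lung or of DMSO fibroblasts), 1 after pladienolide B, and 42 to 43 and 7 expression calls. For alleles, the fits without a library shared 1 spread over all tissues or over both fibroblast conditions, unlike the fits in the report. After centring of the libraries on genes expressed in all, added after the data were seen, 1 gene was called after pladienolide B in place of 7. The log2 differences then turned for Klc1 (0.12), Dync1i2 (0.29), Dync1i1 (0.97) and Dctn1 (0.13). Cortex minus ESC for Dync1h1 was -0.54 without ESC library 2 and turned to 0.10 without ESC library 1. Of the values of named exons under all alternatives, 1163 of 1196 kept their direction and side of the threshold, as did 1272 of 1288 for expression. Many of these alternatives left out a library of a group outside the comparison, which keeps the difference as it was and alters only the spread. These shares therefore say little about the alternatives that could change a result. The planned edgeR fit was not run, because the counts are held in lists, and no retained intron of these genes was listed.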
